A study of Mus musculus with 9 samples.

Results

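Schisandrin B, a lignan from the fruit of Schisandra, was given to rats during a course of carbon tetrachloride (CCl4), and the liver transcriptome of these rats was compared with that of rats given CCl4 alone. The comparison took the 3 libraries whose source name is the schisandrin B treated liver and the 3 whose source name is the fibrosis liver, 6 of the 9 libraries of the series. The labels give male Wistar rats of 180 ± 20 g, with 8 rats per group in the study. Both groups compared had been gavaged with CCl4 for 8 weeks, as a 50% solution in olive oil given 3 times weekly at 2 mL/kg. In the schisandrin B arms the rats had 4 weeks of CCl4 alone and then daily schisandrin B at 25 or 50 mg/kg together with CCl4 for another 4 weeks, and the labels do not give which dose the 3 libraries had. The remaining 3 libraries came from rats that had olive oil in place of CCl4. They are labelled male, but 2 of 3 tested Y-linked genes had 0 counts in them.

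CCl4 is turned into a reactive radical by cytochrome P450 enzymes, chiefly Cyp2e1, in the hepatocytes around the central vein. Repeated doses kill these cells, and hepatic stellate cells respond by laying down scar matrix. Hepatocytes hold most of the RNA of the liver: they make plasma proteins, clear drugs and bile acids, burn fatty acids and make urea. Cells under protein or oxidative stress raise chaperones, proteasome subunits and antioxidant enzymes through transcription factors such as Atf4, Hsf1 and Nfe2l2 (Nrf2).

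Of 37203 gene entries, 14581 held enough counts to be tested, and 12564 had 0 counts in all 9 libraries. The 6 libraries held 10320299 to 14377435 counts. Levels are CPM, counts per library total scaled by TMM factors. They are not corrected for gene length, so they are compared between libraries and not between genes. A gene is called where the edgeR quasi-likelihood test gives a Benjamini-Hochberg adjusted p under 0.05 over all genes tested, and the words rose and fell stand for calls only. By this rule 47.3% of the genes tested were called, 22.5% higher and 24.8% lower with schisandrin B, and the 3 libraries of each group did not overlap in 56.8%. The median gene differed by -0.025 on the log2 scale. Of the called genes, 2313 rose and 2477 fell at least 2-fold, 753 rose and 787 fell at least 4-fold, and 77 rose and 127 fell at least 16-fold. Counts of list members below are to be read against these shares. When libraries were scaled by their totals alone, the median gene moved to -0.299 and the share of calls that were higher went from 47.6% to 32.6%. With upper-quartile factors the median was 0.101 and that share was 54.8%.

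The libraries fell into their groups. A principal component analysis took the 500 genes that varied most over these 6 libraries, a choice that favours genes differing between the groups. It put 86.9% of their variance on an axis that divided the 3 schisandrin B libraries from the 3 with CCl4 alone. That share does not describe all genes. CCl4-alone replicate 1 stood apart from the other CCl4-alone libraries along the second component, which held 6.2%. It correlated with them at 0.944 and 0.939 across genes, where the other pair stood at 0.970 and the schisandrin B pairs at 0.973 to 0.977. It held the highest level of Hspa5 and Ubb, among other genes below, and results that moved by more than 1.5-fold without it are given both ways. The labels do not say that the 3 libraries of a group came from separate animals, so SEs and p-values describe how far libraries of a group spread, which may be technical. That spread was fitted over all 9 libraries, the olive oil group included. A fit to only the 6 libraries compared called 6368 genes, against 6895.

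**Figure D1:**
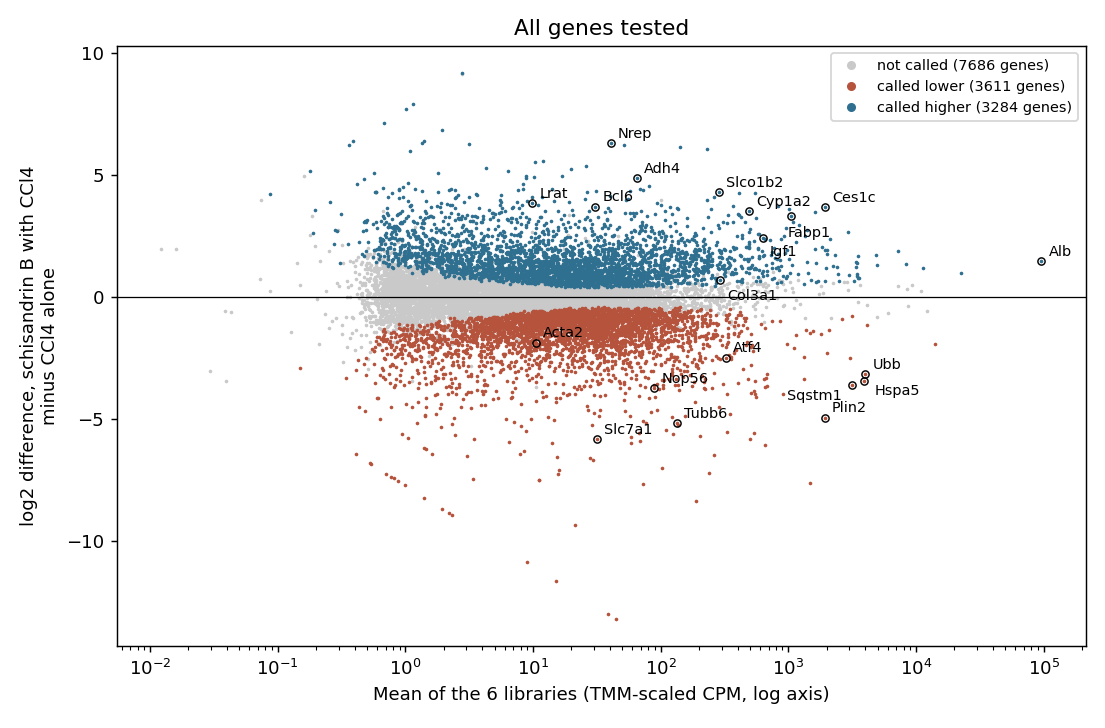
Each point is 1 of the 14581 genes tested, with its mean level over the 6 libraries (TMM-scaled CPM, log axis) and its log2 difference between schisandrin B with CCl4 and CCl4 alone. Blue points were called higher (3284 genes), red points lower (3611), and grey points were not called. Circles mark 20 genes of the text, from Alb at the highest level to Lrat and Acta2 at low levels.

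The machinery of protein quality control was lower with schisandrin B in all 4 lists given here. Of 25 endoplasmic reticulum (ER) chaperones 21 fell and 0 rose, with a median log2 difference of -1.39. All 8 subunits of the CCT chaperonin, the ring that folds actin and tubulin, fell, with a median of -1.40. Of 26 cytosolic heat shock genes 25 fell, with a median of -3.41, and of 34 constitutive proteasome subunits 26 fell and 0 rose, with a median of -0.917. These directions were the same with library totals and with upper-quartile factors, and the heat shock median was -2.13 without CCl4-alone replicate 1.

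Hspa5, the main chaperone of the ER lumen, stood at 10557, 5702 and 5193 CPM in the CCl4-alone libraries and at 734.2, 756.9 and 528.2 CPM with schisandrin B. The lowest CCl4-alone library thus lay far above the highest schisandrin B library, and the gene fell by 3.41 ± 0.31 (SE) on the log2 scale (edgeR adjusted p = 1.25e-05). Atf6, the membrane-bound sensor and transcription factor of the unfolded protein response, had 485.9, 435.6 and 440.5 CPM with CCl4 alone and 86.2, 96.39 and 77.7 CPM with schisandrin B. Its 3 values in each group were close together, and the fall was 2.39 ± 0.20. Dnajb11 and Creld2, a co-chaperone and a folding factor of the ER, fell by 2.00 ± 0.19 and 2.75 ± 0.26, and the secreted ER stress protein Manf fell by 1.98 ± 0.19.

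In the CCT ring, Cct8 stood at 173.2, 104.3 and 112.3 CPM with CCl4 alone and at 42.62, 47.25 and 41.45 CPM with schisandrin B. The difference was -1.57 ± 0.21 on the log2 scale (edgeR adjusted p = 0.0001339), and the 8 subunits spanned a narrow range from -1.65 to -1.07. Cct6a, the subunit with the lowest adjusted p, fell by 1.33 ± 0.15. Tubulins, which this ring folds, were lower as well. Tubb6 had 375, 207.7 and 200 CPM with CCl4 alone and 8.697, 5.833 and 7.304 CPM with schisandrin B, a fall of 5.17 ± 0.35. Tubb4b fell by 2.59 ± 0.18, Tubb2a fell by 3.20 ± 0.28 and the cytoplasmic actin Actg1 fell by 2.93 ± 0.34.

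The proteasome subunits moved less than the chaperones. Psmd12, of the regulatory lid, had 187.2, 152.4 and 130.9 CPM with CCl4 alone and 32.88, 42.58 and 46.75 CPM with schisandrin B (log2 difference -1.94 ± 0.20, edgeR adjusted p = 2.49e-05). The groups lay well apart. Psmc4, an ATPase of the base, fell by 1.70 ± 0.16 and Psmd14, the subunit that cuts ubiquitin off substrates, by 1.51 ± 0.16. The inducible subunit Psmb9, which interferon brings into the immune form of the proteasome, rose from 16.03, 11.65 and 11.16 CPM to 60.4, 34.49 and 34.78 CPM (1.74 ± 0.25), opposite to the constitutive subunits that were called.

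The polyubiquitin gene Ubb, which feeds this pathway, was among the 10 called genes with the largest losses in CPM. It stood at 13721, 4255 and 3584 CPM with CCl4 alone and at 655.4, 868.6 and 890 CPM with schisandrin B. The groups did not overlap, but replicate 1 of CCl4 alone lay far above the other libraries of its group. Its log2 difference was -3.16 ± 0.46, and -2.29 without that library. Sqstm1 (p62), the receptor that carries ubiquitinated proteins to autophagy and is a target of Nrf2, was even across its group, with 6680, 5980 and 4806 CPM against 539.6, 418.3 and 482.2 CPM. It fell by 3.60 ± 0.25 (edgeR adjusted p = 4.584e-06).

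The integrated stress response, in which Atf4 raises amino acid supply genes when translation initiation is braked, was lower with schisandrin B. Of 27 tested genes 22 fell and 2 rose, and the median was -2.96, also with Slc7a11 at its bound. Atf4 itself stood at 560.9, 615.3 and 475.8 CPM with CCl4 alone and at 105.8, 94.71 and 98.51 CPM with schisandrin B. The levels were even within each group, and the difference was -2.47 ± 0.19 (edgeR adjusted p = 6.002e-06). Psat1, of serine synthesis, fell from 24.37, 23.23 and 24.25 CPM to 1.72, 1.75 and 0.8217 CPM. Mthfd2, a mitochondrial folate enzyme, fell by 3.90 ± 0.41. One of the 2 members that rose was Cth, the enzyme that makes cysteine from cystathionine, with 45.01, 64.33 and 44.69 CPM against 200, 361.9 and 395.8 CPM (2.64 ± 0.32).

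Amino acid transporters had no common direction. Of 26 tested, 7 rose and 8 fell, and their median of 0.182 was -0.059 with library totals, -0.073 without CCl4-alone replicate 2 and -0.014 without replicate 3. The 5 members named here all fell. Slc7a1, which imports arginine and lysine, had 76.02, 54.79 and 54.73 CPM with CCl4 alone and 1.338, 0.802 and 1.187 CPM with schisandrin B. It had the lowest adjusted p of all the genes named here (-5.81 ± 0.26, edgeR adjusted p = 7.421e-07), and the groups lay far apart. Slc3a2 and Slc7a5, the chains of a leucine exchanger, fell by 2.51 ± 0.18 and 2.96 ± 0.28. The glycine transporter Slc6a9 fell by 2.02 ± 0.19. The cystine importer Slc7a11 had 27.69, 28.91 and 34.24 CPM with CCl4 alone and 0 counts in all 3 schisandrin B libraries, which makes it at least 116.6-fold lower with those libraries set to 3 counts each.

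Genes that build and run the ribosome fell, while most ribosomal proteins were not called. Of 37 nucleolar factors of ribosome assembly 34 fell and 0 rose, with a median of -1.80. Of 20 cytosolic tRNA synthetases 17 fell and 0 rose (median -1.83), and of 35 translation initiation factors 27 fell and 1 rose (median -0.845). These directions held with library totals and upper-quartile factors. Of 74 tested cytosolic ribosomal proteins 14 fell and 4 rose, both below the shares over all genes. With library totals 28 fell and 2 rose. Without schisandrin B replicate 1 or 2, 7 fell. Without CCl4-alone replicate 1, 9 rose, and 2 rose without CCl4-alone replicate 3 or schisandrin B replicate 3.

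Nop56, a core protein of the particles that modify ribosomal RNA, had 227.2, 145.9 and 120.4 CPM with CCl4 alone and 13, 12.54 and 12.14 CPM with schisandrin B. The difference was -3.71 ± 0.25 (edgeR adjusted p = 4.492e-06), the lowest value of the nucleolar list. Its partner Nop58 fell by 2.61 ± 0.22, and Gar1, of the pseudouridine-making particle, by 3.02 ± 0.22. Hars, which charges histidine tRNA, had 361.7, 206.1 and 182.5 CPM with CCl4 alone and 34.31, 29.67 and 31.04 CPM with schisandrin B. The groups did not overlap, and the fall was 2.98 ± 0.26. Gars, Nars, Rars, Cars and Sars, for glycine, asparagine, arginine, cysteine and serine, fell by 2.21 ± 0.16 to 2.53 ± 0.21. Eif4a1, the helicase that opens the messenger's 5′ end, stood at 487.6, 433.7 and 422.8 CPM against 135.4, 136 and 128.3 CPM (-1.75 ± 0.17). The repressor Eif4ebp1 moved the same way, with a fall of 1.59 ± 0.17.

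The ribosomal proteins that fell did so by little. Rpl3 had 623.4, 686 and 692.8 CPM with CCl4 alone and 281.7, 272.5 and 276.5 CPM with schisandrin B, the largest fall of its list at 1.27 ± 0.17. Rps29 rose by 1.44 ± 0.25. Of 71 tested mitochondrial ribosomal proteins 22 rose and 7 fell, and with library totals 11 rose and 11 fell. Without schisandrin B replicate 2 or 3, 14 rose. Mrpl14 rose from 19.91, 26.41 and 19.67 CPM to 104.4, 90.04 and 102.5 CPM, while Mrps2 fell from 52.7, 74.09 and 71.17 CPM to 19.4, 18.66 and 16.8 CPM.

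**Figure D2:**
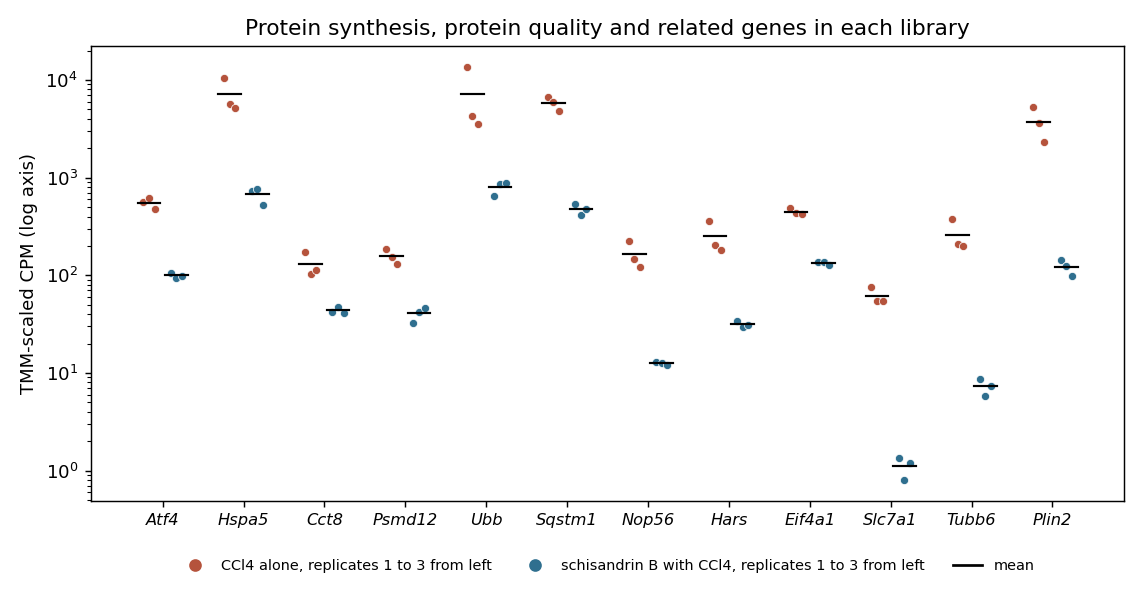
Levels (TMM-scaled CPM, log axis) of 12 genes of protein synthesis, protein quality control and related processes in each CCl4-alone library (red) and each schisandrin B library (blue), with black lines for group means. In all 12 genes the 3 schisandrin B libraries lay below the 3 CCl4-alone libraries, and the red points of Ubb and Hspa5 show replicate 1 above the other CCl4-alone libraries.

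Oxidative stress genes did not move as one group. Of 22 tested targets of Nrf2, 17 fell and 0 rose (median -1.99), while the transcript of Nrf2 itself, Nfe2l2, was not called, with 99.74, 87.11 and 68.12 CPM against 80.56, 85.3 and 67.01 CPM. Gclc, the first enzyme of glutathione synthesis, fell by 2.15 ± 0.29. Of 22 enzymes that remove superoxide and peroxide, 8 rose and 5 fell, with a median of 0.126 that was -0.149 with library totals. Catalase (Cat) rose from 612.6, 1028 and 506.4 CPM to 2498, 3373 and 2987 CPM (2.05 ± 0.28). The mitochondrial superoxide dismutase Sod2 fell from 313.6, 196.7 and 346.1 CPM to 88.21, 88.73 and 81.99 CPM (-1.73 ± 0.22). Gpx1, a selenium enzyme that reduces peroxide, rose by 1.60 ± 0.26, and its gut-type relative Gpx2 fell by 4.13 ± 0.48. Mt1a, a metallothionein that binds zinc and copper, had 41.13, 104.6 and 199.4 CPM against 62.69, 107.3 and 164.1 CPM, and these groups overlapped entirely.

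Genes of cell shape and injury fell. Of 31 tested cytoskeleton and injury genes 19 fell and 1 rose, with a median of -1.32. Keratins 8 and 18, the intermediate filament pair of hepatocytes and bile duct cells, were both lower. Krt18 had 1683, 818.3 and 1137 CPM with CCl4 alone and 120.9, 152.5 and 144.1 CPM with schisandrin B (-3.12 ± 0.30, edgeR adjusted p = 1.725e-05). Krt8 fell by 1.97 ± 0.23. Anxa2 and S100a10, which form a membrane complex, fell by 3.27 ± 0.32 and 2.82 ± 0.33. Ndrg1, a stress and hypoxia gene, had 244.6, 106.9 and 105.8 CPM against 10.61, 7.583 and 8.126 CPM, a fall of 4.12 ± 0.34.

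Growth factor and early genes included some large falls. Of 16 tested genes of EGFR and HGF signals 7 fell and 3 rose (median -0.592). Egfr had 951.8, 491.5 and 355.3 CPM with CCl4 alone and 247.2, 181.7 and 217.8 CPM with schisandrin B. The groups did not overlap, and the fall was 1.48 ± 0.36 (edgeR adjusted p = 0.005905). Its ligand Hbegf fell by 2.99 ± 0.45, while its partner receptor Erbb3 rose by 1.21 ± 0.26. The urokinase receptor Plaur had 332.6, 39.88 and 25.96 CPM against 4.205, 1.458 and 3.013 CPM. Replicate 1 was far above the other CCl4-alone libraries: the log2 difference was -5.54 with it and -3.54 without it. Of 22 tested AP-1 and early genes 10 fell, 1 rose and 11 were not called. The AP-1 subunit Fosl1 had 156.4, 64.86 and 47.27 CPM with CCl4 alone and 0 counts in all 3 schisandrin B libraries, at least 344.6-fold lower at the floor of 3 counts per library, and at least 215.8-fold lower without CCl4-alone replicate 1.

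Among the 15 largest falls over all genes that met the naming rule, several belong to no listed process. PVR, an adhesion receptor read by natural killer cells, had 1069, 288.7 and 189.9 CPM with CCl4 alone and 8.219, 3.864 and 5.661 CPM with schisandrin B. Its log2 difference was -6.45 ± 0.73 (edgeR adjusted p = 0.0001061), and -5.36 without CCl4-alone replicate 1. Nptx2, a secreted pentraxin, had 21.13, 29.52 and 16.03 CPM against 0, 0.07291 and 0.2739 CPM. The epithelial transcription factor Grhl1 and the semaphorin Sema7a fell by 6.59 ± 0.70 and 6.65 ± 0.98, and by 5.72 and 4.99 without CCl4-alone replicate 1. The inositol transporter Slc5a3 rested most on 1 library: it had 83.14, 3.784 and 5.109 CPM against 0.7645, 0.2187 and 0 CPM. Its log2 difference was -6.55, but -3.78 without replicate 1 of CCl4 alone and -7.82 without schisandrin B replicate 1. With limma voom it was not called (adjusted p = 0.0871).

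Drug-metabolising genes of the hepatocyte were higher with schisandrin B. Of 43 tested cytochrome P450 genes of families 1 to 4, 28 rose and 0 fell (median 1.32). Of 40 conjugation enzymes 25 rose and 5 fell (median 1.19), and of 38 enzymes of aldehydes, epoxides and esters 24 rose and 2 fell (median 1.76). With library totals 2 P450 genes were called lower, and the 3 medians stayed above 0 with both other scalings. Reads of close paralogs in the Cyp2b, Cyp2c, Cyp3a, Cyp4a, Ugt2b, Sult and Gst families can be shared, so single values in them are uncertain. In whole tissue a lower share of a cell type and less RNA per cell cannot be told apart, and the same holds for a higher one.

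Cyp1a2, a P450 of the pericentral zone that clears caffeine, had 26.8, 37.77 and 169.6 CPM with CCl4 alone and 909.8, 750 and 1057 CPM with schisandrin B. Replicate 3 of CCl4 alone lay above the other libraries of its group but far below the treated group. The log2 difference was 3.53 ± 0.62 (edgeR adjusted p = 0.001203), and 4.80 without that library. Cyp2c7, a retinoid and drug oxidase, rose from 382.5, 295.9 and 487.3 CPM to 1759, 2245 and 1667 CPM (2.28 ± 0.30). Cyp4a1, which oxidises the end of fatty acid chains, rose by 1.70 ± 0.21. Cyp2e1 rose too, and it was higher by 2.11 to 2.79 on the log2 scale over 15 alternative fits. All 18 tested pericentral genes rose, with a median of 2.85, and 18 rose with any 1 library left out. Cyp2b1, the classical phenobarbital-type P450, had low levels of 7.691, 4.39 and 0.8221 CPM against 10.13, 30.11 and 25.2 CPM. It was called higher (2.37 ± 0.74, edgeR adjusted p = 0.02458), but not without a filter on low counts (0.102), or without CCl4-alone replicate 2 (0.0728), schisandrin B replicate 2 (0.0741) or schisandrin B replicate 3 (0.0609). Without CCl4-alone replicate 1 its difference was 3.11.

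Of the conjugation enzymes, Ugt2b10, a glucuronosyltransferase, had the lowest adjusted p, with 5.019, 6.584 and 5.579 CPM against 63.55, 78.89 and 72.4 CPM (3.64 ± 0.20, edgeR adjusted p = 1.712e-06). Both groups were tight and lay far apart. Ugt2b17 and Ugt1a5 rose by 2.53 ± 0.34 and 1.95 ± 0.22. The glutathione transferases that fell included Gstp1, a marker of preneoplastic rat liver, by 1.10 ± 0.25, and Gstm3 by 2.90 ± 0.31. Alcohol dehydrogenase 4 (Adh4) rose from 1.619, 5.979 and 4.991 CPM to 99.96, 113.5 and 164.1 CPM, a difference of 4.89 ± 0.41. The carboxylesterase Ces1c rose from 448.2, 178.5 and 212.9 CPM to 3094, 3506 and 4255 CPM (3.69 ± 0.38). Fmo1, a flavin oxidase, rose by 3.53 ± 0.33 and Pon1, a serum lactonase, by 2.03 ± 0.21. Ephx2, the soluble epoxide hydrolase, had 0.5667, 0.9082 and 1.409 CPM against 43.77, 7.874 and 63.82 CPM, so its schisandrin B libraries spread widely while staying above the others.

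Transporters of bile acids and drugs were mostly higher, while the P-glycoprotein export pump Abcb1a fell. Of 23 tested drug and bile transporters 15 rose and 3 fell (median 1.54). Slc10a1, the sodium-linked bile acid importer, had 74.07, 139 and 78.16 CPM with CCl4 alone and 741.2, 841.7 and 879.5 CPM with schisandrin B. The groups lay far apart (3.08 ± 0.28, edgeR adjusted p = 1.231e-05). Slco1b2, an organic anion importer, rose from 40.15, 23.08 and 18.85 CPM to 427.2, 593.9 and 607.9 CPM (4.31 ± 0.33). Abcg5, part of the pump that sends sterols into bile, rose by 4.36 ± 0.49, and by 4.96 without CCl4-alone replicate 2. Abcb1a, a P-glycoprotein, fell from 125.9, 117.2 and 104.8 CPM to 14.05, 21.22 and 18.53 CPM (-2.69 ± 0.20).

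Bile acid genes rose with these importers. Of 20 tested, 16 rose and 0 fell (median 1.62). Baat, which joins bile acids to taurine or glycine, rose from 106.1, 143.9 and 69 CPM to 812, 1073 and 1130 CPM, a difference of 3.24 ± 0.29 (edgeR adjusted p = 1.202e-05). Amacr and Acox2, which shorten the sterol side chain in peroxisomes, rose by 3.40 ± 0.30 and 3.07 ± 0.29. Akr1d1, a reductase of the sterol ring, had 248, 257.8 and 129.5 CPM against 1133, 1340 and 856.2 CPM and rose by 2.39 ± 0.29.

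**Figure D3:**
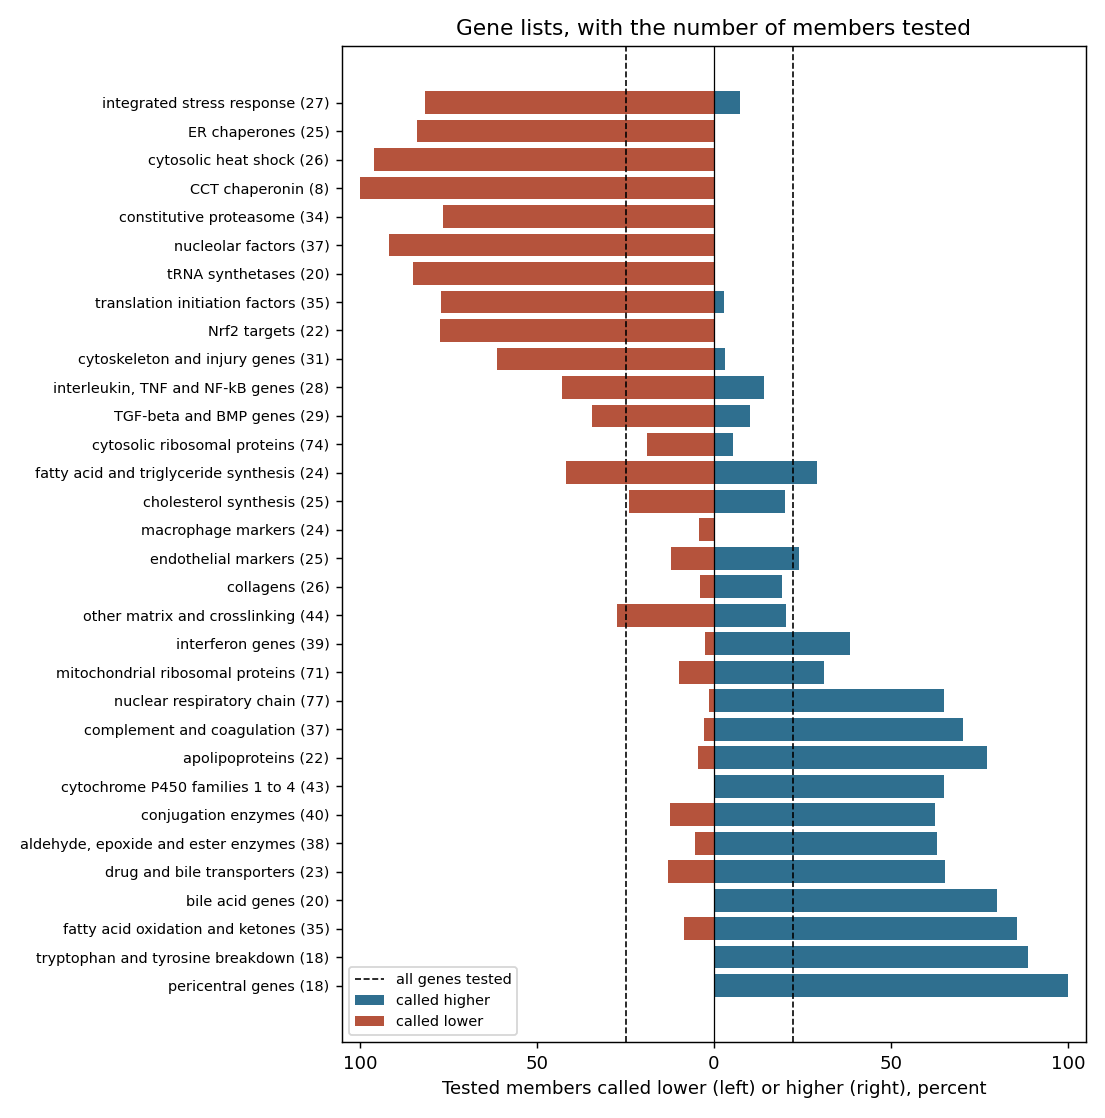
Share of tested members called lower (red, to the left) or higher (blue, to the right) with schisandrin B in 32 gene lists, with the number of members tested in brackets. Dashed lines mark the shares over all genes tested, 24.8% lower and 22.5% higher. The protein quality, tRNA synthetase and nucleolar lists extend to the left, drug, bile acid and fatty acid oxidation lists to the right, and the macrophage list stays near 0.

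Fatty acid oxidation genes rose, and synthesis genes were mixed. Of 35 genes of fatty acid oxidation and ketone synthesis 30 rose and 3 fell (median 1.70). Of 24 tested genes of fatty acid and triglyceride synthesis 10 fell and 7 rose (median -0.261), and 11 fell and 4 rose with library totals. Fabp1, the liver fatty acid carrier, rose from 140.5, 268 and 157.3 CPM to 1623, 2089 and 2064 CPM (3.35 ± 0.30, edgeR adjusted p = 1.113e-05). Ppara, the nuclear receptor that raises oxidation genes, had 9.634, 28.83 and 45.04 CPM with CCl4 alone and 188.7, 259.6 and 251.6 CPM with schisandrin B, a rise of 3.06 ± 0.45. Acsl1, which activates long-chain fatty acids, rose by 2.86 ± 0.33. The medium-chain acyl-CoA synthetase Acsm5 was among the 15 largest rises, from 1.295, 9.082 and 9.631 CPM to 336.6, 497.8 and 538.8 CPM.

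Plin2, which coats lipid droplets, fell, with 5274, 3624 and 2321 CPM with CCl4 alone and 143, 125.7 and 98.97 CPM with schisandrin B. The lowest CCl4-alone library was far above all treated libraries, and the fall was 4.93 ± 0.37 (edgeR adjusted p = 5.676e-06). Fasn, the fatty acid synthase, fell from 1318, 1042 and 621.2 CPM to 119.8, 90.41 and 69.11 CPM (-3.42 ± 0.40). Acly, which supplies its acetyl-CoA, fell by 2.79 ± 0.34. Within the same list Acacb, the carboxylase form at the mitochondrion, and Mlxipl (ChREBP), the glucose-responsive transcription factor, rose by 2.08 ± 0.23 and 2.19 ± 0.26. The desaturases of polyunsaturated fatty acids rose: Fads2 had 36.59, 77.72 and 65.48 CPM against 528.8, 511.6 and 801 CPM (3.36 ± 0.33), and Fads1 rose by 2.15 ± 0.29.

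The cholesterol pathway had no common direction: of 25 genes 5 rose and 6 fell, near the shares over all genes. Hmgcs1, at the head of the pathway, rose from 32.3, 54.79 and 34.88 CPM to 95.66, 174.4 and 241.9 CPM. Fdps, in its middle, fell from 570.4, 493.2 and 506.9 CPM to 110.8, 124.5 and 148.9 CPM (-2.03 ± 0.20). Sqle, the squalene epoxidase, fell by 1.93 ± 0.26. Glucose genes of the liver were mostly higher, with 9 of 14 up and 2 down (median 1.33): Pc, which carboxylates pyruvate, rose by 1.69 ± 0.28 and fructokinase (Khk) by 1.40 ± 0.20, while liver pyruvate kinase (Pklr) fell by 1.58 ± 0.32. Of 13 tested general glycolysis isoenzymes 4 fell and 0 rose, with Aldoa at 429, 330.8 and 281.1 CPM against 53.61, 60.3 and 61.81 CPM.

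Of 77 tested nuclear genes of the respiratory chain 50 rose and 1 fell (median 0.748), and 34 rose and 2 fell with library totals. Atp5e, a small subunit of ATP synthase, had 44.2, 39.58 and 36.88 CPM with CCl4 alone and 107.6, 129 and 166.3 CPM with schisandrin B (1.74 ± 0.21, edgeR adjusted p = 6.887e-05), the largest rise of the list. Ndufa4 and Cox7c rose by 1.46 ± 0.16 and 1.46 ± 0.17. Of 40 tested mitochondrial carriers 17 rose and 3 fell, and 12 rose and 7 fell with library totals. The largest rise among them was that of Slc25a23, an ATP and phosphate exchanger, which stood at 11.66, 19.37 and 9.454 CPM against 195.3, 221.5 and 144.4 CPM. The enzymes of tryptophan and tyrosine breakdown rose in 16 of 18, among them Qdpr, which recycles the cofactor of tyrosine synthesis, by 1.92 ± 0.25.

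Complement, coagulation and apolipoprotein genes were mostly higher, while secreted stress factors were mostly lower. Of 37 complement and coagulation genes 26 rose and 1 fell (median 1.02), or 23 and 4 with library totals or without CCl4-alone replicate 1. Their summed levels overlapped, at 30300, 49480 and 49680 CPM with CCl4 alone and 48480 to 49370 CPM with schisandrin B. Of 22 apolipoprotein genes 17 rose and 1 fell (median 1.24). Albumin (Alb) stood at 54492, 66907 and 31548 CPM with CCl4 alone and at 129118, 144811 and 149882 CPM with schisandrin B, 4.18% to 7.65% and 13.09% to 14.33% of all counts. The groups did not overlap, and the rise was 1.47 ± 0.28 (edgeR adjusted p = 0.001314). Apoc3, an inhibitor of triglyceride clearance, rose from 732.6, 780.6 and 461.2 CPM to 2860, 2286 and 2603 CPM. F13b, a clotting factor subunit, rose by 2.49 ± 0.22 and the lectin Mbl2 by 2.85 ± 0.31. The coagulation gene that fell was the fibrinogen chain Fgg, by 1.11 ± 0.21.

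Of 16 tested secreted stress factors 9 fell and 4 rose (median -1.541). Fgf21, a fasting and stress hormone of the liver, had 529.4, 132.6 and 54.67 CPM against 6.307, 11.74 and 5.934 CPM, and its log2 difference of -4.89 was -3.54 without CCl4-alone replicate 1. The stress cytokine Gdf15 had a difference of -3.96, which was -3.05 without that library, and Stc1, a secreted glycoprotein, fell by 3.34 ± 0.62.

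The acute phase list was mixed, with 6 of 24 members up and 4 down. Serpina3n, an acute phase protease inhibitor with close paralogs, had the largest loss in mean CPM of all called genes, with 20128, 18262 and 28354 CPM against 4545, 6421 and 7024 CPM (-1.89 ± 0.31). Lcn2, an iron-binding injury protein, had 57.72, 80.9 and 591.8 CPM against 5.256, 2.625 and 7.213 CPM. Here replicate 3 of CCl4 alone was the high library, and the difference was -5.61 with it and -3.80 without it.

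Of 27 transcription factors of the hepatocyte 12 rose and 4 fell (median 0.579), and 2 fell without CCl4-alone replicate 2 or any 1 schisandrin B library. Rxra, the common partner of the lipid and drug receptors, rose by 1.58 ± 0.17, and the drug receptor Nr1i2 (PXR) by 1.65 ± 0.25. In the growth hormone and IGF axis 9 of 20 rose and 4 fell, with 4 and 4 by library totals and 6 and 2 without schisandrin B replicate 3. Igf1 had 193.3, 227 and 167.5 CPM with CCl4 alone and 918.4, 1207 and 1075 CPM with schisandrin B (2.44 ± 0.29, edgeR adjusted p = 6.699e-05). Its binding partner Igfals rose by 2.41 ± 0.42, and Igfbp1, a stress-induced binding protein, fell by 1.39 ± 0.31. Bcl6, a repressor linked to growth hormone signals in male liver, rose from 3.562, 5.6 and 3.758 CPM to 46.92, 71.89 and 51.77 CPM (3.72 ± 0.32). Cish, a feedback inhibitor of the same receptor, fell by 4.86 ± 1.06, and by 3.41 without CCl4-alone replicate 1.

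Clock output genes rose while the clock activator Arntl (Bmal1) fell. Dbp, a transcription factor driven by the clock, had 2.833, 13.17 and 26.07 CPM with CCl4 alone and 141.4, 135.9 and 145.9 CPM with schisandrin B. The treated group was tight and the other was spread, and the difference was 3.32 ± 0.59 (edgeR adjusted p = 0.001299) and 4.13 without CCl4-alone replicate 3. Tef, its relative, rose by 2.77 ± 0.28, and Per2, a clock repressor, rose from 6.314, 7.19 and 7.047 CPM to 72.73, 53.95 and 22.82 CPM. Arntl fell from 30.92, 16.57 and 11.51 CPM to 2.771, 2.479 and 2.739 CPM. In all, 8 of 19 tested clock genes rose and 4 fell, and 5 rose and 7 fell with library totals. The hour of day at which livers were taken is not given in the labels, and its part in these differences was not tested.

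**Figure D4:**
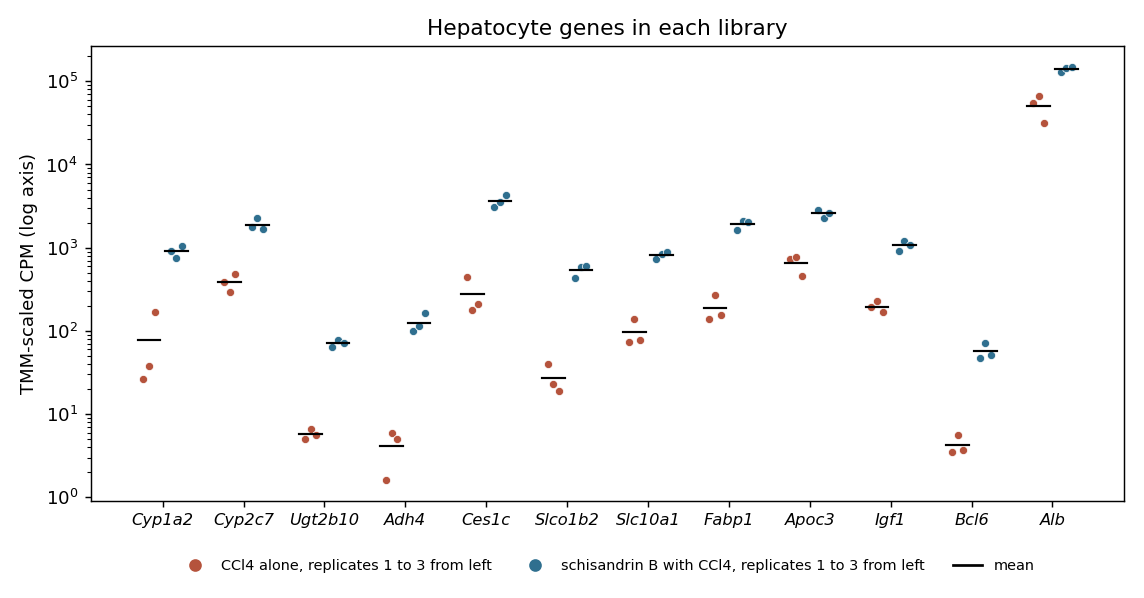
Levels (TMM-scaled CPM, log axis) of 12 hepatocyte genes in each CCl4-alone library (red) and each schisandrin B library (blue), with black lines for group means. In all 12 genes the 3 schisandrin B libraries lay above the 3 CCl4-alone libraries, and the third red point of Cyp1a2 lies above the other 2.

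The study's question concerns scar tissue, and here the matrix and contractile genes did not share 1 direction. Acta2, a contractile actin that stellate cells make once activated, had 17.65, 9.309 and 22.67 CPM with CCl4 alone and 5.352, 4.739 and 3.561 CPM with schisandrin B. The groups did not overlap, and the fall was 1.86 ± 0.32 (edgeR adjusted p = 0.0007182). Tagln, another contractile protein, had 49.3, 9.914 and 55.38 CPM against 12.52, 8.385 and 7.487 CPM, so that 1 CCl4-alone library lay within the treated range. It was called lower (-2.02 ± 0.55, edgeR adjusted p = 0.01244), but not without CCl4-alone replicate 1 (0.0725), with limma voom (0.053) or without a filter (0.0617). Timp1, the inhibitor of matrix proteases, had 20, 9.385 and 12.21 CPM against 10.42, 5.76 and 8.217 CPM and was not called (-0.77 ± 0.31, edgeR adjusted p = 0.05905). The profibrotic factor Tgfb1 was not called either (-0.69 ± 0.29, edgeR adjusted p = 0.06707). Both Timp1 and Tgfb1 were called lower in 3 of 15 alternatives: with library totals, without a filter and without CCl4-alone replicate 2. Their edgeR adjusted p went down to 0.018 and 0.0162.

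The fibrillar collagen transcripts Col1a1, Col1a2 and Col3a1 were higher with schisandrin B, weakly so. Col1a1 had 10.04, 8.174 and 21.49 CPM with CCl4 alone and 64.41, 25.15 and 27.57 CPM with schisandrin B. The groups did not overlap, but replicate 3 of CCl4 alone and replicates 2 and 3 of schisandrin B lay close together. Its difference was 1.55 ± 0.44 (edgeR adjusted p = 0.01495), and the call was lost with library totals (0.0574), without a filter (0.0631), and without CCl4-alone replicate 1 (0.0835) or 2 (0.0532). Col1a2 differed by 1.07 ± 0.38 and Col3a1 by 0.72 ± 0.27, and their calls were lost in 8 and 7 of 15 alternatives, with adjusted p up to 0.152 and 0.278. The rises of Col5a1 and Col18a1 and the fall of Col12a1 were called in all 15 alternatives, but the groups overlapped for Col12a1. The 44 listed collagens summed to 936.9 to 1135 CPM with CCl4 alone and 1625 to 1915 CPM with schisandrin B. In the olive oil libraries, a reference only, they summed to 1081, 1418 and 1503 CPM, so the CCl4-alone sums were not above that reference. These sums were not tested. Of 26 tested collagens 5 rose and 1 fell, fewer than over all genes, and with library totals 2 rose and 2 fell. Without CCl4-alone replicate 2, 2 rose and 3 fell. Without CCl4-alone replicate 1 or any 1 schisandrin B library, 3 rose.

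Of 44 other tested matrix and crosslinking genes 9 rose and 12 fell, near the shares over all genes, and 5 rose and 16 fell with library totals. Without schisandrin B replicate 2 or 3, 6 and 5 fell. Sparc, a collagen-binding matrix protein, had 135.8, 107.1 and 147.7 CPM against 313, 225 and 289.5 CPM and rose by 1.08 ± 0.20 (edgeR adjusted p = 0.00097). The basement membrane chain Lamc1 fell from 549, 144.3 and 158.3 CPM to 47.4, 36.24 and 36.61 CPM, by 2.82 ± 0.49, and by 1.92 without CCl4-alone replicate 1. Of 19 tested matrix proteases and inhibitors 4 rose and 5 fell, or 3 and 8 without CCl4-alone replicate 2. The membrane protease Mmp15 rose from 5.343, 9.763 and 10.28 CPM to 35.26, 33.32 and 22 CPM (1.83 ± 0.26), and Adamts5, which cuts aggrecan, rose by 2.14 ± 0.45. The stromelysin Mmp3 had 1659 counts in the CCl4-alone libraries and 2 with schisandrin B, a ratio of rates of 684.2 with a 95% counting interval from 189.1 to 5654. The ratio was 438 without CCl4-alone replicate 1, 1042 without replicate 3 and 417.1 without schisandrin B replicate 2. Without schisandrin B replicate 3, which held both counts, Mmp3 was at least 168.7-fold lower. Mmp10, its neighbour in function, had 31.01, 19.53 and 3.582 CPM against 0 counts in all 3 schisandrin B libraries, at least 69.44-fold lower at the floor of 3 counts per library, and at least 44.48-fold lower without CCl4-alone replicate 1. Its call was lost without a filter on low counts (edgeR adjusted p = 0.0815). The membrane-bound Mmp14 and the inhibitor Timp3 fell by 1.44 ± 0.23 and 1.59 ± 0.18.

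Of 12 tested markers of resting stellate cells 3 rose and 3 fell, near the shares over all genes. Lrat, which stores vitamin A as esters in these cells, had 1.052, 1.135 and 1.527 CPM with CCl4 alone and 18.25, 16.7 and 20.27 CPM with schisandrin B. Both groups were tight and far apart (3.87 ± 0.31, edgeR adjusted p = 7.512e-06). Cygb, a globin of stellate cells, and the filament protein Des fell by 1.56 ± 0.22 and 1.37 ± 0.33. The 13 listed markers summed to 376.9 to 557.3 CPM with CCl4 alone and 613 to 620.1 CPM with schisandrin B. Of 14 tested markers of activated stellate cells 4 rose and 2 fell, and 1 rose and 4 fell with library totals or without CCl4-alone replicate 2. Without CCl4-alone replicate 1, 2 rose and 1 fell, and 2 rose and 2 fell without schisandrin B replicate 1. The 18 listed markers summed to 272.5 to 520.5 CPM and 488.2 to 678.1 CPM, ranges that overlap.

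In the TGF-beta and BMP list 10 of 29 tested members fell and 3 rose (median -0.526). Smad7, the inhibitor of the pathway, rose from 6.314, 5.979 and 4.933 CPM to 10.42, 11.16 and 10.13 CPM (0.88 ± 0.22, edgeR adjusted p = 0.006496). Smad4, the shared signal carrier, fell by 1.09 ± 0.16 and the repressor Tgif1 by 3.02 ± 0.38. The count of falls depended on single libraries: 6 fell without CCl4-alone replicate 1, 5 without schisandrin B replicate 1, 6 without replicate 2 and 4 without replicate 3.

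**Figure D5:**
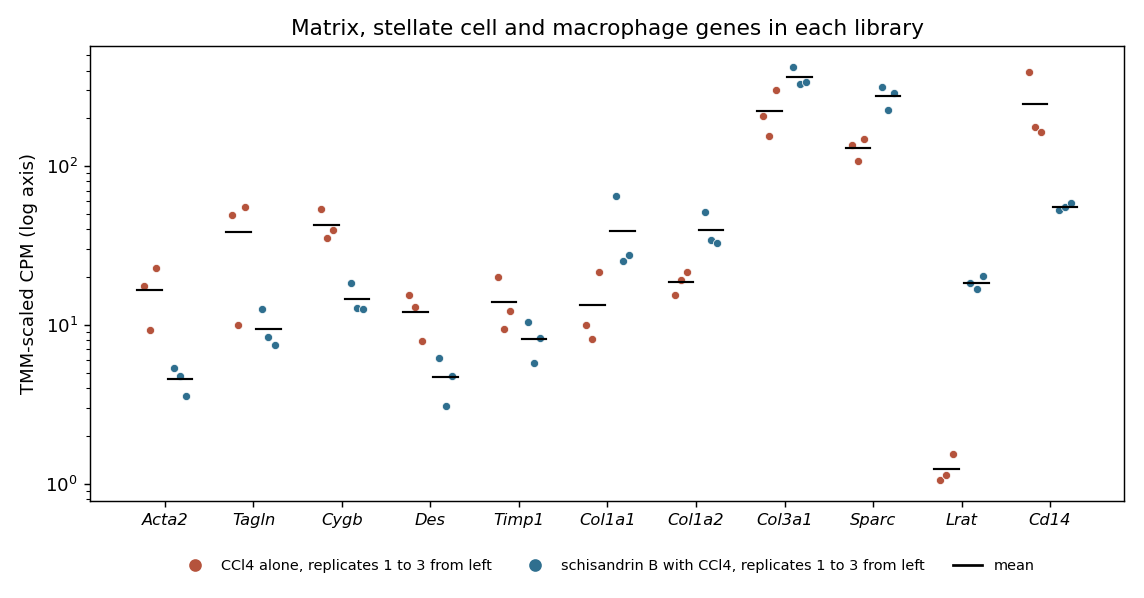
Levels (TMM-scaled CPM, log axis) of 11 matrix, stellate cell and macrophage genes in each CCl4-alone library (red) and each schisandrin B library (blue), with black lines for group means. The blue points lie below the red ones for Acta2, Cygb, Des and Cd14, above them for Col1a1, Col1a2, Col3a1, Sparc and Lrat, and among them for Tagln and Timp1.

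Few markers of macrophages were called. Of 24 tested 1 was called, against 47.3% of all genes, and the 25 listed markers summed to 1643 to 3376 CPM with CCl4 alone and 1643 to 2465 CPM with schisandrin B. The called marker was Cd14, the receptor for bacterial endotoxin that injured hepatocytes can express too, at 393, 177.1 and 163.7 CPM against 53.04, 54.9 and 58.52 CPM (-2.14 ± 0.30, edgeR adjusted p = 0.0001819). Cd163 and Marco, scavenger receptors of resident macrophages, differed by -0.67 ± 0.27 and -0.95 ± 0.37 and were not called. Without CCl4-alone replicate 1, 3 markers rose and 1 fell, while 4 fell without replicate 2 and 2 without replicate 3. Without schisandrin B replicate 2, 2 rose, and with library totals 5 fell.

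Other cell types gave small counts. Of 25 endothelial markers 6 rose and 3 fell, with 9 up and 3 down without CCl4-alone replicate 1, 2 up and 6 down without replicate 2, and 3 up and 4 down without replicate 3. With library totals 2 rose and 8 fell. The vascular growth factor receptor Flt1 fell by 1.52 ± 0.26 and the sinusoidal scavenger receptor Stab1 rose by 1.09 ± 0.23. Of 13 tested duct markers 6 fell and 0 rose, and Krt8 and Krt18, which hepatocytes share, held most of their sum of 1484 to 2717 CPM with CCl4 alone and 387.9 to 403.3 CPM with schisandrin B. The duct keratin Krt19 fell from 8.338, 13.47 and 13.8 CPM to 6.116, 2.625 and 4.108 CPM. Of 13 neutrophil markers 4 held enough counts to be tested, and all 4 fell at low levels. The others were too low to be tested. A gene near the filter can pass through the group where it is high, so this count does not measure the list. With 7 tested, 5 fell without schisandrin B replicate 1 and 4 without replicate 3. S100a9 fell from 6.153, 7.19 and 7.928 CPM to 0.5734, 2.26 and 0.913 CPM. Its log2 difference was -2.46, and -3.23 without schisandrin B replicate 2. Of 14 tested lymphocyte markers 2 rose, and 0 did without CCl4-alone replicate 3 or schisandrin B replicate 2, while 6 rose with upper-quartile factors. Hepatocyte markers rose in 12 of 19 and summed to 82340 to 131800 CPM with CCl4 alone and 223200 to 246400 CPM with schisandrin B, and their part in the other differences was not tested.

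Of 28 tested interleukin, TNF and NF-kB genes 12 fell and 4 rose (median -0.678), and 2 rose without CCl4-alone replicate 2 or 3 or schisandrin B replicate 2. With library totals 16 fell and 2 rose. Tnfrsf12a, the receptor of the injury cytokine TWEAK, had 478.7, 98.69 and 64.65 CPM with CCl4 alone and 6.594, 4.593 and 3.743 CPM with schisandrin B, a fall of 5.43 ± 0.78 (edgeR adjusted p = 0.0004581), and of 4.04 without CCl4-alone replicate 1. The subunits Nfkb2 and Relb, even across libraries, fell by 1.74 ± 0.20 and 1.93 ± 0.25, and the adhesion molecule Icam1 by 1.97 ± 0.23. Il33, an alarm cytokine, rose from 9.229, 8.401 and 12.1 CPM to 51.13, 58.91 and 60.35 CPM (2.51 ± 0.19). Among 29 tested chemokines and receptors 6 rose and 6 fell. Cxcl12, a constitutive chemokine, rose from 53.75, 69.25 and 48.68 CPM to 208.8, 398.7 and 281.3 CPM. Ccl2, which attracts monocytes, had 13.11, 1.438 and 1.292 CPM against 0.2867, 0.2916 and 0.0913 CPM, and its difference of -4.47 was -2.55 without CCl4-alone replicate 1. Without schisandrin B replicate 2 or 3, 2 chemokine genes fell, and 3 without CCl4-alone replicate 1.

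Of 39 tested interferon genes 15 rose and 1 fell (median 0.617), and 12 rose and 2 fell with library totals, as 10 and 3 did without CCl4-alone replicate 3. Stat2, which carries the type I interferon signal, rose from 37.81, 61.6 and 51.38 CPM to 181.2, 124.8 and 143 CPM (1.57 ± 0.21, edgeR adjusted p = 0.0001411). The groups did not overlap. Ifi27, an interferon-induced gene, rose by 2.07 ± 0.30. The count of rises ranged from 10 to 16 when 1 library was left out.

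Cell cycle genes were few among the calls. Of 27 tested genes of DNA replication and mitosis 3 fell and 2 rose, 18.5% against 47.3% of all genes. With library totals 1 rose, as without CCl4-alone replicate 3 or schisandrin B replicate 2, and 0 rose without schisandrin B replicate 3. Mcm7, of the replication helicase, fell from 41.93, 55.55 and 47.8 CPM to 17.87, 14.22 and 12.78 CPM. The cell cycle inhibitor Cdkn1a, a target of p53, fell by 3.72 ± 0.35 (edgeR adjusted p = 1.869e-05). Of 19 apoptosis and necroptosis genes 5 rose and 6 fell, and 3 rose and 9 fell with library totals. Among the survival proteins Mcl1 and Bcl2l1 fell by 1.93 ± 0.34 and 1.62 ± 0.32, and Mcl1 fell by 1.34 without CCl4-alone replicate 1. Of the genes that promote death, Casp12 fell by 2.76 ± 0.46, and Bad and Bcl2l11 rose by 1.30 ± 0.25 and 1.21 ± 0.26. The executioner caspase Casp6 rose by 2.65 ± 0.56, and by 1.96 without schisandrin B replicate 3.

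The largest rises over all genes included several outside the listed processes. Nrep, first described in regenerating nerve, had 1.052, 0.5298 and 1.351 CPM with CCl4 alone and 78.75, 60.88 and 101 CPM with schisandrin B (6.32 ± 0.55, edgeR adjusted p = 2.105e-05), the largest fitted rise by the naming rule. The catalytically inactive metalloprotease homolog Adam11 had 0.8095, 0.3784 and 0.2936 CPM against 22.65, 19.76 and 28.21 CPM. Its groups lay far apart (5.59 ± 0.39), but the CCl4-alone values were spread and not far above the floor of 3 counts per library. The potassium channel Kcnh1 had 0.4048, 1.06 and 0.1762 CPM against 16.06, 16.33 and 18.62 CPM, and its rise of 4.98 was 5.89 without CCl4-alone replicate 2. Nat8, an N-acetyltransferase, rose by 4.96 ± 0.38. Fabp7, the brain-type fatty acid carrier, rose from 2.51, 8.779 and 7.047 CPM to 82.76, 135.5 and 180 CPM.

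Both groups compared carried transcripts of the Y chromosome. Kdm5d had 5.91, 7.568 and 10.63 CPM with CCl4 alone and 12.61, 13.27 and 10.96 CPM with schisandrin B, and Eif2s3y had 9.082 to 11.33 CPM and 10.42 to 13.34 CPM. Neither was called. In the olive oil libraries, also labelled male, both had 0 counts, so levels there are given as a reference only and can hold a difference of sex. Against that reference, Plin2 had 138.9 ± 39.2 CPM (SD, n = 3), close to the 98.97 to 143 CPM with schisandrin B, and Slc10a1 had 718.5 ± 115.0 CPM, close to 741.2 to 879.5 CPM. Fasn had 821.9 ± 331.1 CPM in the olive oil libraries, above the highest schisandrin B value of 119.8 CPM. Nrep had 13.75 ± 7.78 CPM and Adam11 0.0226 ± 0.0391 CPM there, both below the lowest schisandrin B values of 60.88 and 19.76 CPM. These comparisons with the olive oil libraries were not tested.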

How the data were processed

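Rat liver RNA with a RIN above 8.0 was sequenced on the Ion Proton platform, per the labels' protocols. The authors deposited 1 table of 9 libraries that holds whole-number counts for each gene, not normalized. How reads were aligned and counted is not given in the sources used. Labels give the organism as mouse and, per the submitters' processing notes, a mouse build, but the strain as Wistar rat. The symbols are rat symbols (1317 start with RGD, 1687 with Olr, 54 with RT1), so genes are reported by symbol without positions or sequences. Rat reference sequence was not used here, and promoter motifs were not analysed.

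Libraries were grouped by source name. The count test was that of edgeR 4.0.16 (R 4.3.3), with filterByExpr, TMM factors, 1 robust quasi-likelihood fit to all 9 libraries with a mean per group, and an F test of schisandrin B minus CCl4 alone. SE is the log2 difference divided by the square root of F. A group with 0 counts was set to 3 counts per library, the floor, which is 0.176 to 0.287 CPM in the 6 libraries. With 1 to 3 counts an exact 95% interval is given. Floors and intervals cover counting error only. The fit was also run on simulated data with few changed genes, as many up as down. In the real data 47.3% of genes were called, so that run cannot check the scaling used here.

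The comparison and the 65 gene lists were chosen with earlier results of these data known. The naming rule took the 15 largest rises and falls (called, no overlap, at least 10 CPM in the higher group, proper symbol), the 10 largest gains and losses in CPM, up to 6 members per list with the lowest adjusted p, and a few fixed genes such as Acta2. It gave 398 genes, and the text describes only a part of them. Lists are given by counts and medians, without a set test. Alternatives used DESeq2 1.42.0 and limma 3.58.1. Figures were drawn with Python 3.11.15 and matplotlib 3.10.9.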

Additional observations from a re-analysis of the deposited data

How the results depend on the processing

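The counts of genes called higher and lower stayed within 1.5 times under every scaling, filter, test, threshold and omission of 1 library that was run, and no called gene had the opposite sign in any of them. Leaving out 1 library gave 5669 to 7022 calls. Of the 398 genes taken by the naming rule, not all of which are described above, 376 were called. Up to 15 alternatives counted per gene, since fits in which a gene was not tested or a called gene had no adjusted p were left out. Hmox1 and Alb thus had 14, and Ccl2 had 13. In the alternatives that counted, 351 of the 376 kept their call and direction, 25 lost the call in at least 1, and 0 reversed. Of the genes of the rule that were not called, 15 were called in at least 1 alternative. Reversals occurred in uncalled genes: Slc2a1 was 0.08 without fibrosis replicate 1, against -1.103 to 0.08 over the omissions of 1 library. Eif2s3y was -0.089 with library totals, and Nfe2l2 was 0.006 with upper-quartile factors. The Mt1a log2 fold change was 0.049 with upper-quartile factors, 0.007 with a mean of at least 5 CPM, 0.131 with limma voom, and -0.455 to 0.605 over the omissions of 1 library, with 0.605 without fibrosis replicate 3 and 0.29 without schisandrin B replicate 1. No paired analysis was possible because the labels give no replicate numbers, and the numbers used here follow the order of the deposit. Depth limits low genes: the floor of 3 counts was 0.176 to 0.287 CPM.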
